A study of Mus musculus with 6 samples.

Results

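The transcripts of 38 genes that copy DNA or carry out mitosis were followed by RNA-seq in the intestine of mice with colitis. The colitis was caused by dextran sulfate sodium (DSS), which damages the gut lining. The genes were taken by symbol from the deposited count table, and all 38 were found among its 55335 genes and passed the filter on low counts. They are named by their function, and no value enters the rule, but they were chosen with earlier results of these data known. The groups were Trmt6-/- mice and wild-type (WT) mice, with 3 animals each, and all had been given DSS. Trmt6 encodes the non-catalytic subunit of a tRNA methyltransferase that places 1-methyladenosine. The labels used here give no age, sex, DSS dose, day or intestinal segment. The libraries are called by their column names, KO72, KO73 and KO75 for Trmt6-/- and WT185, WT186 and WT187 for WT.

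Cells that divide first license their replication origins by loading the MCM helicase with CDC6 and CDT1, then copy their DNA in S phase with PCNA as the sliding clamp, and finally condense and separate the chromosomes in mitosis. Transcription of the replication genes is controlled by E2F factors around the G1/S boundary, and that of the mitotic genes peaks later under the DREAM and MYB-MuvB complexes and FOXM1, which act through CHR elements, with NF-Y on CCAAT boxes. In the intestinal epithelium dividing cells are confined to the crypts, where stem cells feed a transit-amplifying compartment, whereas villus cells have left the cell cycle.

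Levels are given as CPM, counts scaled to library size with TMM factors. Counts summed to 15213972 to 16479870 per library in Trmt6-/- and to 16024317 to 16972758 in WT. The transcript of Trmt6 was no lower in libraries labelled Trmt6-/-, at 39.8 CPM in KO72, 34.2 in KO73 and 36.2 in KO75, against 30.9 in WT185, 18.7 in WT186 and 23.1 in WT187 (log2 fold change 0.60 ± 0.21 SE, edgeR adjusted p = 0.335), so every direction below rests on the labels. Absorptive and goblet cell transcripts were abundant, with the 10 enterocyte markers summing to 31187 to 52173 CPM in Trmt6-/- and 18473 to 49359.9 CPM in WT. Transcripts of the muscle and connective tissue wall were nearly absent from material labelled intestinal tissue: the 8 fibroblast and smooth muscle markers summed to 2.71 to 8.75 CPM in Trmt6-/- and 5.75 to 7.71 CPM in WT, and Myh11 had 7 counts over all 6 libraries. For Fabp6, a bile acid binding protein gene of the ileum, the level was 341 CPM in KO72, 267 in KO73 and 16.7 in KO75, against 543 in WT185, 2.59 in WT186 and 0.120 in WT187, so libraries of the same group differed in markers of intestinal position.

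The promoters of the replication and of the mitotic genes differed in their motifs. Windows from 250 bases before to 50 bases after the annotated start were taken from RefSeq (GRCm38.p6) and were present for 29 of the 38 genes. They were searched on both strands for the E2F site (TTTCCCGC, TTTGGCGC, TTTGCCGC or TTTCGCGC), the CHR element (TTTGAA) and the CCAAT box (CCAAT). An E2F match stood in 4 of 9 S phase genes (44.4%) and in 1 of 16 mitotic genes (6.25%), against 2.60% of 27025 genes with such a window. A CHR match stood in 1 of 9 S phase genes (11.1%) and in 12 of 16 mitotic genes (75.0%), against 20.2% of all genes. CCAAT boxes were frequent in both, at 8 of 9 S phase genes (88.9%) and 15 of 16 mitotic genes (93.8%), against 41.1% of all genes. A match is only a run of letters, and no binding was measured. The 180 bases before the start are shown for 3 replication genes, Mcm5 (chr8:75109329-75109508, plus strand), Mcm6 (chr1:128359706-128359885, minus strand) and the licensing gene Cdc6 (chr11:98907971-98908150, plus strand), and for 3 mitotic genes, Cdk1 (chr10:69352913-69353092, minus strand), Top2a (chr11:99024190-99024369, minus strand) and Cdc20 (chr4:118437344-118437523, minus strand). They are given 5′ to 3′ on the gene's own strand with matches on either strand in capitals, and E2F matches that overlap on opposite strands run together in Mcm5 and Mcm6.
Mcm5: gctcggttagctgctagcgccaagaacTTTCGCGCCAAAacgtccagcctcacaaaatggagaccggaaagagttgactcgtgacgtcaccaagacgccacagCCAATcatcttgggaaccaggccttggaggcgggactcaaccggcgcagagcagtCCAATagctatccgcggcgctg
Mcm6: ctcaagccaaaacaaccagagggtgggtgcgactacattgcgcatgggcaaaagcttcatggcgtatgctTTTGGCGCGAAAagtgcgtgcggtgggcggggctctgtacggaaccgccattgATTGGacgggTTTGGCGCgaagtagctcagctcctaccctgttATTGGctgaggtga
Cdc6: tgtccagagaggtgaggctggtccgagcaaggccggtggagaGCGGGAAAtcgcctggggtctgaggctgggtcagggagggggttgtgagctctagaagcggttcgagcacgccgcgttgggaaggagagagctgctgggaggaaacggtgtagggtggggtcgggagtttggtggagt
Cdk1: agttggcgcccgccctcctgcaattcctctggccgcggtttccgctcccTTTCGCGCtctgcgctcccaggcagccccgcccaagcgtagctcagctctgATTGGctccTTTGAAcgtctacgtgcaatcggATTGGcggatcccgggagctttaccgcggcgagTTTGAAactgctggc
Top2a: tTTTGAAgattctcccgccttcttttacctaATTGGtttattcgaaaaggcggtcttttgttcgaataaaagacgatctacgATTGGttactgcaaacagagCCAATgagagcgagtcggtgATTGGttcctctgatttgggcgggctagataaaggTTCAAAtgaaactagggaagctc
Cdc20: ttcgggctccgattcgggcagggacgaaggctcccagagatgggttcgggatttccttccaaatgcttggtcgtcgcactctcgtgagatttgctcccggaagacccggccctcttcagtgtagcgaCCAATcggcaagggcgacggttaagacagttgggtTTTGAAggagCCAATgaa

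Mcm5, Mcm6 and Cdc6 held E2F matches and no CHR match in these stretches. Top2a and Cdc20 held CHR and CCAAT matches and no E2F match, and Cdk1, the kinase that drives entry into mitosis, held all 3. In Cdc20, Kif11, Ube2c and Top2a a CHR match began 18 to 29 bases before the start. Tyms, Birc5, Ccne1 and E2f1 matched none of the motifs in their windows.

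**Figure D1:**
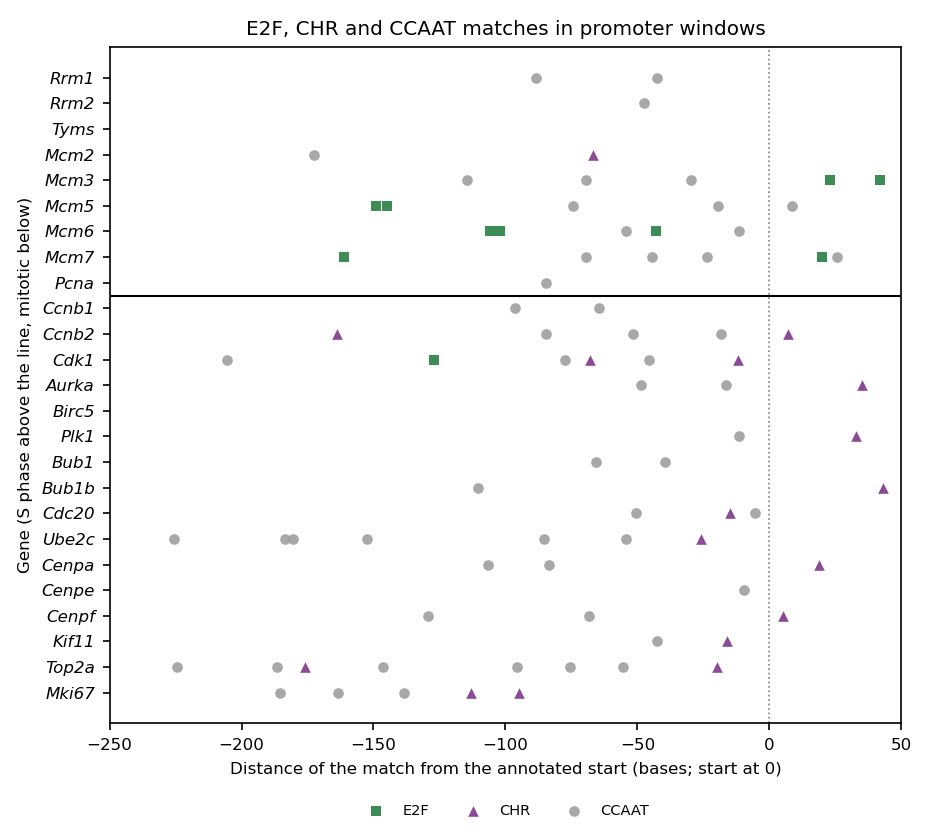
Positions of E2F (squares), CHR (triangles) and CCAAT (circles) matches in the promoter windows of 9 S phase genes (above the line) and 16 mitotic genes (below), in bases from the annotated start. E2F matches appear in 4 of the 9 upper rows, and CHR matches in 12 of the 16 lower rows.

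No member passed the test between genotypes. With the quasi-likelihood test of edgeR, 0 of 38 passed an adjusted p of 0.05, where 0.0425% of all 14107 tested genes did (6 genes). At an unadjusted p below 0.05 there were 0 of 38, against 12.1% of all tested genes in edgeR. DESeq2 called 0 of 38, against 4.49% of all genes to which it gave an adjusted p (633 genes), and put 0 of 38 at an unadjusted p below 0.05, against 13.9%. With limma-voom 0 of 38 passed, as did 0% of all tested genes, and 0 of 38 had an unadjusted p below 0.05, against 11.7%. In no member did the 3 Trmt6-/- libraries separate from the 3 WT libraries, whereas 18.7% of all tested genes had groups without overlap. Most estimates were below 0 all the same, 35 of 38 (92.1%), against 53.9% of all tested genes, and the median log2 fold change of the members was -0.48, against -0.03 for all tested genes. That median depended on single libraries, at -0.91 without KO72, -0.16 without KO75, -0.12 without WT185 and -0.75 without WT186. The intervals were wide: the 95% interval of 35 members included a log2 fold change of -1 and that of 8 included 1, so a 2-fold lower level was not excluded for most members.

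**Figure D2:**
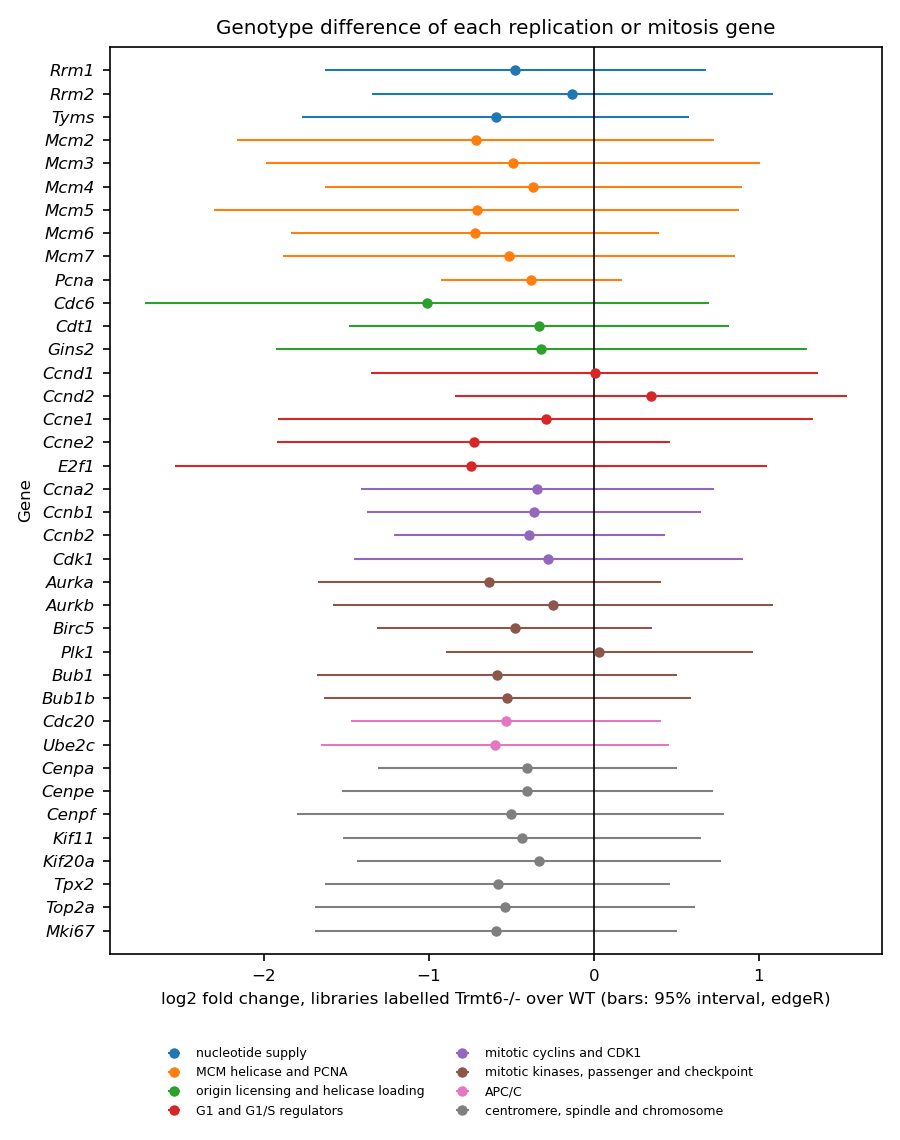
Log2 fold change of each member, libraries labelled Trmt6-/- over WT, with 95% intervals from the edgeR fit (3 libraries per group), coloured by role. Every interval crosses 0, and 35 of the 38 estimates lie below it.

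Levels varied widely between libraries of the same genotype. The pooled standard deviation of log2 CPM within groups had a median of 0.767 over the members, against 0.348 over all tested genes, and the spread from lowest to highest library had a median of 1.98 on the log2 scale, against 1.0. KO75 was the lowest library for 33 of the 38 members (86.8%), against 18.4% of all tested genes. WT185 was the highest for 30 (78.9%), against 20.5%. As the mean over members of log2 CPM minus the gene's own 6-library mean, KO72 stood at 0.54, KO73 at -0.18 and KO75 at -1.05, against 0.84 for WT185, -0.58 for WT186 and 0.44 for WT187, so each group held both high and low libraries. In bulk RNA, fewer dividing cells and less of these transcripts per dividing cell cannot be told apart.

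**Figure D3:**
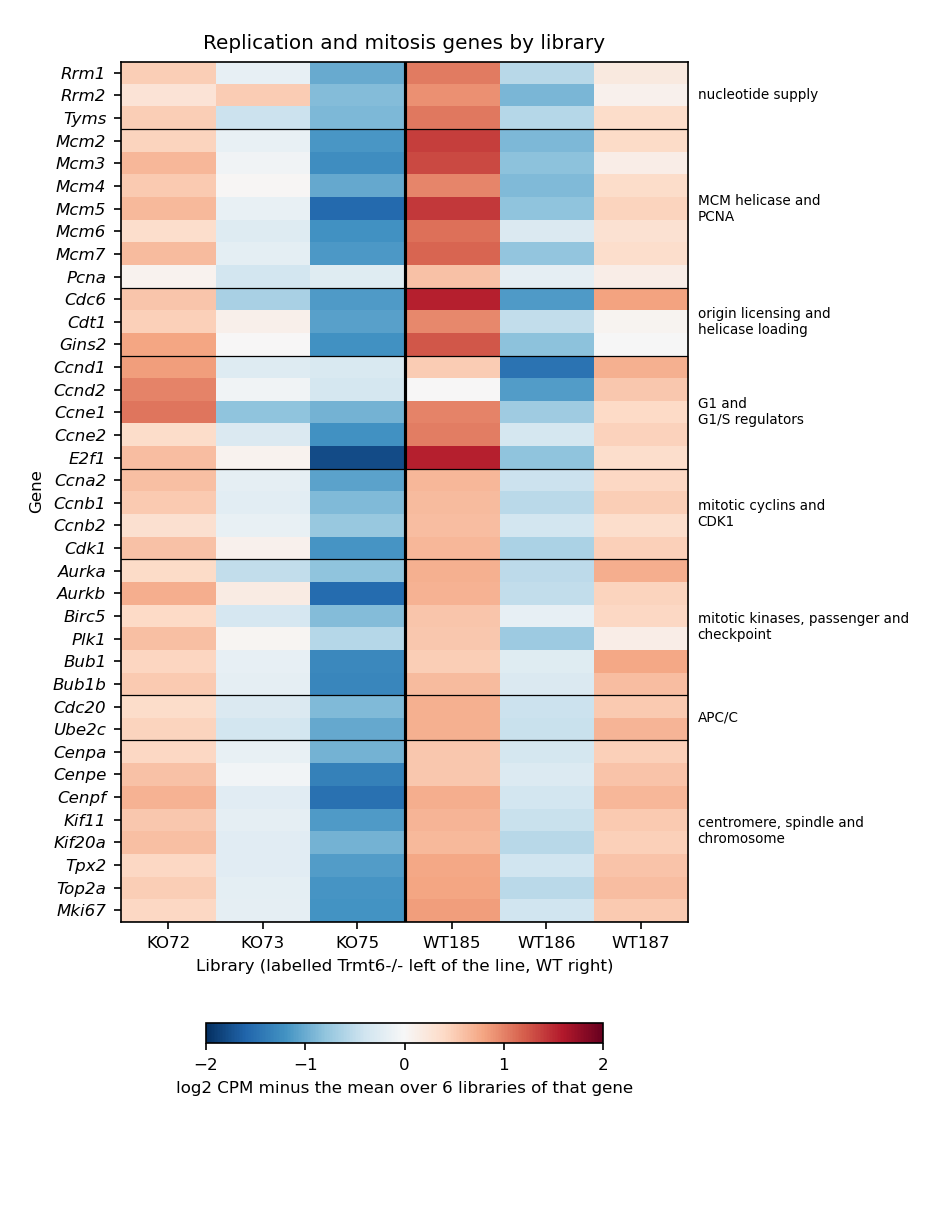
Log2 CPM of the 38 members in each library minus the gene's mean over 6 libraries, with roles at the right, Trmt6-/- libraries left of the line and WT libraries right of it. KO75 is the lowest in 33 rows and WT185 the highest in 30.

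The MCM genes, which encode the 6 subunits of the replicative helicase, swung widely between libraries. Mcm5 stood at 62.6 CPM in KO72, 36.0 in KO73 and 13.6 in KO75, against 106 in WT185, 22.9 in WT186 and 54.2 in WT187. Mcm2 stood at 48.2 CPM in KO72, 31.6 in KO73 and 15.7 in KO75, against 92.1 in WT185, 18.8 in WT186 and 46.2 in WT187. WT185 was thus the highest and KO75 the lowest library for both, and WT186 was closer to KO75 than to WT187. Mcm3 averaged 32.9 ± 19.5 CPM in Trmt6-/- and 46.1 ± 33.2 CPM in WT (SD, n = 3 each), and Mcm4 37.2 ± 18.0 CPM in Trmt6-/- and 47.9 ± 27.1 CPM in WT. Mcm6 averaged 65.6 ± 32.8 CPM in Trmt6-/- and 108 ± 52.0 CPM in WT, and Mcm7 49.9 ± 28.9 CPM in Trmt6-/- and 71.2 ± 43.6 CPM in WT. The log2 fold changes of the 6 genes lay between -0.72 and -0.37. Mcm6 had the smallest adjusted p of the 6 (log2 fold change -0.72 ± 0.47 SE, adjusted p = 0.622), with -1.14 without KO72, -0.40 without KO75 and -0.25 without WT185. Exons of neighbouring genes and of microRNAs cover 12.6% of the exon bases of Mcm7, where a read that falls in both genes cannot be assigned to either.

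Pcna, which encodes the sliding clamp that holds DNA polymerase on its template, varied less. It stood at 115 CPM in KO72, 84.3 in KO73 and 91.9 in KO75, against 163 in WT185, 96.3 in WT186 and 119 in WT187. Its spread of 0.95 on the log2 scale was the narrowest of the 38 members, and its lowest library was KO73 and not KO75. In the fit of all 6 libraries it had the smallest p of the 38 (log2 fold change -0.38 ± 0.23 SE, 95% interval -0.93 to 0.17, adjusted p = 0.592), and without WT185 the log2 fold change was -0.13 (adjusted p = 0.824). Per length it was the most abundant member, with a mean of 154 TPM (a length-scaled level, from counts and exon lengths) over the 6 libraries, followed by Ccnd2 at 90.5 and Mki67 at 80.1 TPM. The lowest were Gins2 at 4.36 and Cdc6 at 5.72 TPM. Pcna also has processed pseudogenes, of which Pcna-ps2 had 65 counts in all, against 11068 for Pcna.

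The nucleotide supply genes had WT185 as their highest library, like the helicase genes. Rrm1 and Rrm2 encode the subunits of ribonucleotide reductase, and Tyms encodes thymidylate synthase. Rrm1 stood at 88.7 CPM in KO72, 56.2 in KO73 and 31.5 in KO75, against 129.6 in WT185, 43.2 in WT186 and 72.6 in WT187. Rrm2 stood at 36.7 CPM in KO72, 43.5 in KO73 and 16.7 in KO75, against 57.4 in WT185, 16.2 in WT186 and 32.4 in WT187, with KO73 above KO72 and WT186 the lowest library. Tyms averaged 18.8 ± 9.65 CPM in Trmt6-/- and 28.4 ± 14.8 CPM in WT (log2 fold change -0.60 ± 0.49 SE, adjusted p = 0.716), with -1.09 without KO72, -0.33 without KO75, -0.11 without WT185 and -0.92 without WT186.

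Of the licensing factors, Cdc6 had the most negative estimate of the module in the fit of all 6 libraries, and its size rested on single libraries. Cdc6, which loads the helicase at origins, stood at 9.93 CPM in KO72, 4.26 in KO73 and 2.99 in KO75, against 19.9 in WT185, 3.00 in WT186 and 11.8 in WT187. Its log2 fold change was -1.01 ± 0.72 SE (95% interval -2.72 to 0.70, adjusted p = 0.660), and WT186 lay at the level of KO75. It was -0.34 without WT185, where several mitotic genes such as Bub1 at -0.51 were more negative, -1.68 without KO72 and -1.46 without WT186. Cdt1, its partner in licensing, averaged 31.2 ± 14.9 CPM in Trmt6-/- and 39.2 ± 20.4 CPM in WT. Gins2, a subunit of the active helicase complex, averaged 4.68 ± 2.95 CPM in Trmt6-/- and 5.84 ± 4.26 CPM in WT. Its level is uncertain, since 67.3% of its exon bases lie in exons of Gse1 on the other strand and the counting used no strand.

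The G1 cyclins did not share the order of the S phase genes. Ccnd1 and Ccnd2 encode D-type cyclins, which activate CDK4 and CDK6 early in G1. Ccnd2 stood at 458 CPM in KO72, 219 in KO73 and 181 in KO75, against 233 in WT185, 106 in WT186 and 336 in WT187. Ccnd1 stood at 144 CPM in KO72, 67.6 in KO73 and 65.4 in KO75, against 115 in WT185, 29.1 in WT186 and 132 in WT187. For both, KO72 was the highest library and WT186 the lowest, and WT187 exceeded WT185. Their log2 fold changes were 0.35 ± 0.50 and 0.01 ± 0.57 SE (adjusted p = 0.845 and 0.997), and 23.4% of the exon bases of Ccnd1 lie in exons of a gene on the other strand. The Wnt target Axin2 stood at 116 CPM in KO72, 66.4 in KO73 and 30.1 in KO75, against 99.6 in WT185, 33.2 in WT186 and 89.3 in WT187, with KO72 the highest library as well and KO75 the lowest. Axin2 was chosen after its values were seen, and Lgr5, from the same list of crypt stem cell markers, had WT185 highest.

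The E-type cyclins and E2f1, which act at the G1/S boundary, were of low abundance. E2f1, which encodes a transcription factor of the replication genes, stood at 9.20 CPM in KO72, 6.22 in KO73 and 1.64 in KO75, against 17.6 in WT185, 3.34 in WT186 and 7.61 in WT187. Its spread of 3.33 on the log2 scale was the widest of the 38 members, with the same highest and lowest library as the MCM genes. Ccne1 averaged 5.08 ± 4.40 CPM in Trmt6-/- and 6.23 ± 3.34 CPM in WT, with KO72 its highest library. Ccne2 averaged 6.54 ± 3.39 CPM in Trmt6-/- and 10.8 ± 4.89 CPM in WT (log2 fold change -0.73 ± 0.50 SE, adjusted p = 0.644), with -1.18 without KO72, -0.41 without KO75 and -0.33 without WT185. Exons of Ints8 on the other strand cover 17.4% of the exon bases of Ccne2.

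The mitotic genes had KO75 as their lowest library in 19 of 20 cases. Mki67, which encodes the surface protein of mitotic chromosomes used as a proliferation marker, stood at 287 CPM in KO72, 190.3 in KO73 and 94.4 in KO75, against 387 in WT185, 163 in WT186 and 311 in WT187. Top2a, which encodes the topoisomerase that untangles sister chromatids, stood at 238 CPM in KO72, 148 in KO73 and 75.1 in KO75, against 292 in WT185, 117 in WT186 and 261 in WT187. KO72 thus lay close to WT187 and KO73 above WT186 for both genes, with KO75 alone at the bottom. Log2 fold changes were -0.59 ± 0.46 SE for Mki67 (95% interval -1.69 to 0.51, adjusted p = 0.695) and -0.54 ± 0.49 SE for Top2a (-1.69 to 0.61, adjusted p = 0.743). Without KO72 they were -1.01 for Mki67 and -0.999 for Top2a, without KO75 -0.27 and -0.21, and without WT185 -0.29 and -0.27. Within groups the standard deviation of log2 CPM had a median of 0.718 over the 20 mitotic genes and 0.851 over the 10 S phase genes.

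For the mitotic cyclins and their kinase KO75 was again lowest and WT185 highest. Cdk1 stood at 39.7 CPM in KO72, 28.0 in KO73 and 11.5 in KO75, against 42.0 in WT185, 16.9 in WT186 and 36.9 in WT187. Ccnb1, the cyclin partner of CDK1 at mitotic entry, averaged 29.7 ± 14.3 CPM in Trmt6-/- and 38.3 ± 14.5 CPM in WT, and Ccnb2 25.6 ± 9.24 CPM in Trmt6-/- and 33.6 ± 10.98 CPM in WT. Ccna2, which acts from S phase into early mitosis, averaged 53.1 ± 29.3 CPM in Trmt6-/- and 67.3 ± 24.0 CPM in WT. Exons of Exosc9 on the other strand cover 12.5% of its exon bases. The 4 log2 fold changes lay between -0.39 and -0.27, with adjusted p from 0.738 to 0.887.

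Of the mitotic kinase and checkpoint genes, Plk1 had an estimate above 0 with all 6 libraries, the only such of the 20 mitotic genes, and one below 0 without KO72 (-0.30) or WT186 (-0.24). Plk1, a kinase of centrosome maturation and mitotic exit, stood at 61.8 CPM in KO72, 41.8 in KO73 and 27.5 in KO75, against 59.0 in WT185, 24.5 in WT186 and 44.5 in WT187, with WT186 and not KO75 the lowest (log2 fold change 0.03 ± 0.39 SE, adjusted p = 0.984). Aurkb, the kinase of the chromosomal passenger complex, stood at 37.2 CPM in KO72, 25.0 in KO73 and 7.61 in KO75, against 36.5 in WT185, 16.0 in WT186 and 30.5 in WT187. Its spread of 2.27 was the widest of the 20 mitotic genes, with KO75 the lowest library. Birc5 (survivin), of the same complex, averaged 21.9 ± 9.72 CPM in Trmt6-/- and 30.6 ± 7.43 CPM in WT. The centrosomal kinase gene Aurka averaged 14.8 ± 6.75 CPM in Trmt6-/- and 23.0 ± 9.60 CPM in WT (log2 fold change -0.63 ± 0.44 SE, adjusted p = 0.646), and its log2 fold change ran from -1.06 without KO72 to -0.41 without KO75. The spindle checkpoint kinase gene Bub1 averaged 13.3 ± 7.07 CPM in Trmt6-/- and 19.98 ± 6.71 CPM in WT, and its relative Bub1b 25.5 ± 14.6 CPM in Trmt6-/- and 36.7 ± 11.8 CPM in WT.

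The genes of mitotic exit and of the spindle also had KO75 as their lowest library. Cdc20, the activator of the anaphase-promoting complex, averaged 30.5 ± 13.2 CPM in Trmt6-/- and 44.1 ± 16.3 CPM in WT, and Ube2c, the ubiquitin-conjugating enzyme of that complex, 35.9 ± 18.3 CPM in Trmt6-/- and 54.4 ± 21.2 CPM in WT. The centromere genes were Cenpa, the histone H3 variant of centromeres, the motor gene Cenpe and the kinetochore gene Cenpf. Cenpf stood at 47.9 CPM in KO72, 25.0 in KO73 and 10.4 in KO75, against 48.9 in WT185, 22.9 in WT186 and 46.4 in WT187. Cenpa averaged 27.2 ± 12.1 CPM in Trmt6-/- and 36.0 ± 11 CPM in WT, and Cenpe 30.2 ± 17.7 CPM in Trmt6-/- and 39.9 ± 11.7 CPM in WT. The spindle motor gene Kif11 averaged 48.5 ± 26.3 CPM in Trmt6-/- and 65.7 ± 24.2 CPM in WT, the cytokinesis motor gene Kif20a 14.7 ± 7.85 CPM in Trmt6-/- and 18.5 ± 7.22 CPM in WT, and the spindle assembly factor gene Tpx2 23.7 ± 11.7 CPM in Trmt6-/- and 35.6 ± 13.4 CPM in WT. Exons of other genes on the opposite strand cover 22.8% of the exon bases of Ube2c and 29.3% of those of Kif20a.

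S phase and mitotic genes were then set against each other in each library, as the mean log2 CPM of 10 S phase genes (Mcm2 to Mcm7, Pcna, Rrm1, Rrm2 and Tyms) minus that of the 20 mitotic genes. Its zero has no meaning, because CPM is not scaled to length, and only differences between libraries can be read. It was 0.32 in KO72, 0.41 in KO73 and 0.40 in KO75, against 0.79 in WT185, 0.12 in WT186 and 0.11 in WT187. The Trmt6-/- libraries thus lay within 0.1 of each other and between the WT libraries, of which WT185 was far above and the other two below. Means were 0.38 ± 0.052 in Trmt6-/- and 0.34 ± 0.391 in WT (SD, n = 3 each), a difference of 0.035, which was 0.26 without WT185. No test was made on this score.

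WT185 and WT187 differed more in S phase genes than in mitotic genes. Between WT185 and WT187 the 10 S phase genes differed by 0.45 to 1.19 on the log2 scale, with a mean of 0.82 and all 10 higher in WT185. The 20 mitotic genes differed by -0.28 to 0.41, with a mean of 0.13. Mcm3 was 1.19 higher in WT185 than in WT187 and Mcm5 0.97 higher, whereas Mki67 was 0.32 higher, Ube2c 0.026 higher and Bub1 differed by -0.28. Between KO72 and KO75, the libraries of Trmt6-/- that lay farthest apart, S phase and mitotic genes differed by nearly the same amount, 1.49 and 1.58 in the mean. The difference between the genotypes in this respect was not tested. These libraries were singled out after their values were seen.

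**Figure D4:**
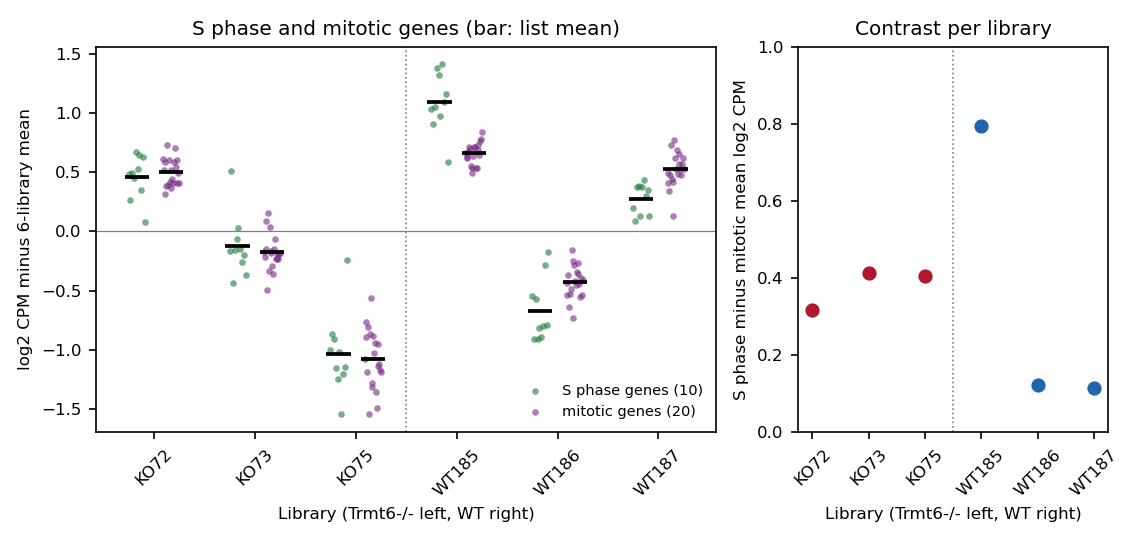
Left, log2 CPM minus the 6-library mean for 10 S phase genes (green) and 20 mitotic genes (purple) in each library, with bars at the list means. Right, S phase minus mitotic mean log2 CPM per library, which lies between 0.32 and 0.41 in the Trmt6-/- libraries and at 0.79, 0.12 and 0.11 in the WT libraries.

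The median log2 fold change between genotypes was -0.50 over the S phase genes, all 10 below 0, and -0.46 over the mitotic genes, 19 of 20 below 0. Without WT185 the S phase median was 0.024, with 5 of 10 below 0, while the mitotic median was -0.27, with 17 of 20 below 0. Without KO75 the medians were -0.24 and -0.14. Without KO72 they were -1.04 and -0.90, and without WT186 -0.87 and -0.68.

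Of the 7 crypt stem cell markers, Olfm4, Lgr5 and Slc12a2 had WT185 as the highest and KO75 as the lowest library. The order between these differed, with WT187 above KO72 for Olfm4 but below KO73 for Lgr5 and Slc12a2. Lgr5 was chosen after its values were seen. Axin2, given above, is also on that list and had KO72 highest, and the other markers are not shown singly. The stem cell gene Olfm4 stood at 484 CPM in KO72, 297 in KO73 and 9.18 in KO75, against 1536 in WT185, 369 in WT186 and 773 in WT187. Lgr5, the receptor that marks crypt base stem cells, stood at 12.2 CPM in KO72, 8.45 in KO73 and 0.285 in KO75, against 37.6 in WT185, 6.004 in WT186 and 7.19 in WT187. For both, WT185 was the highest library and KO75 the lowest, as for the MCM genes. Slc12a2, a crypt ion transporter gene, stood at 493 CPM in KO72, 272 in KO73 and 68.5 in KO75, against 534 in WT185, 126 in WT186 and 267 in WT187. All 7 crypt stem cell markers were tested and none passed, and their sum ran from 148 to 1258 CPM in Trmt6-/- and from 632 to 2411 CPM in WT. Fabp6, given above, was also higher in WT185 than in WT186 and WT187. T and NK cell markers, 9 of 10 tested, took another order, with sums of 81.4 CPM in KO72, 231 in KO73 and 704 in KO75, against 259 in WT185, 378 in WT186 and 974 in WT187. Of 8 B and germinal centre markers 4 were tested, with sums from 5.10 to 6.76 CPM in Trmt6-/- and 4.50 to 6.35 CPM in WT. The 5 Paneth cell markers summed to 5989 CPM in KO72, 3066 in KO73 and 3761 in KO75, against 6894 in WT185, 811 in WT186 and 2528 in WT187, which also put WT185 highest. The part of crypt content, intestinal position and leukocyte content in the values of the module was not tested.

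**Figure D5:**
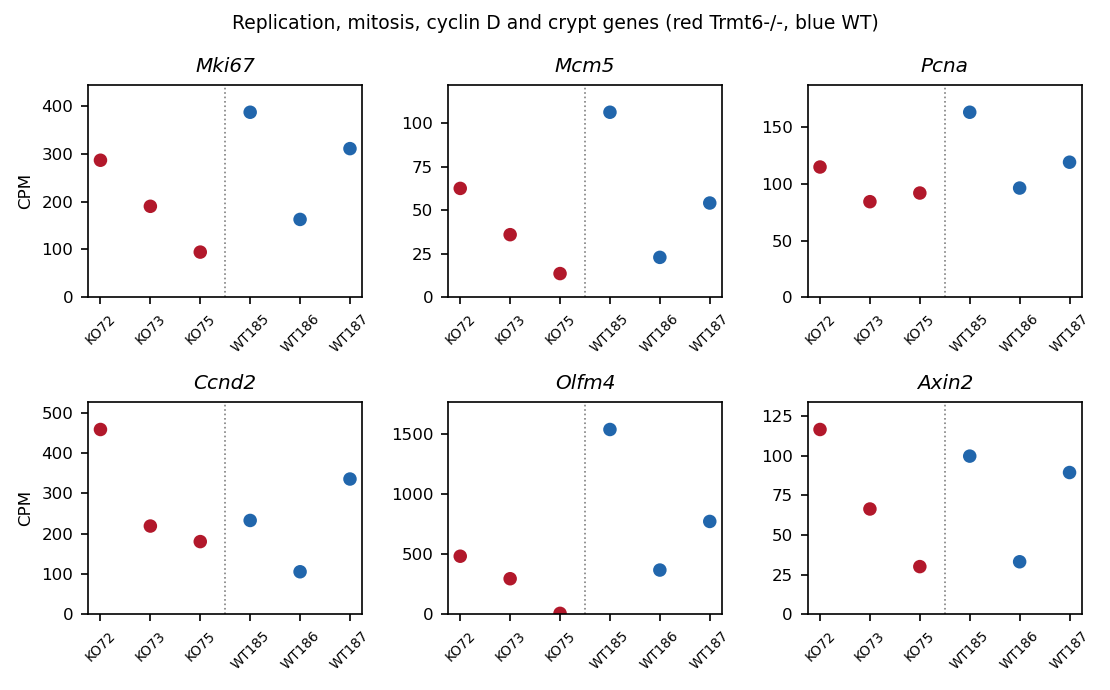
CPM per library of the mitotic gene Mki67, the replication genes Mcm5 and Pcna, the cyclin gene Ccnd2, the stem cell gene Olfm4 and the Wnt target Axin2, with Trmt6-/- libraries in red and WT libraries in blue. Mcm5 and Olfm4 share WT185 as the highest and KO75 as the lowest library, and Ccnd2 has KO72 highest and WT186 lowest.

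Most further cell cycle genes had estimates below 0 as well. Of 46 further replication genes 43 had estimates below 0 (median -0.37), and of 55 further mitosis genes 53 had (median -0.41). None passed with edgeR or limma-voom, 2 of each list had an unadjusted p below 0.05, all lower in Trmt6-/-, against 5.94% of all tested genes in that direction, and DESeq2 called 1 of each, no larger a share than its 4.49% over all genes. Without WT185 the medians were 0.0062 and -0.13, without KO75 -0.12 and -0.11, without KO72 -0.67 and -0.83, and without WT186 -0.59 and -0.68. WT185 was the highest library for 39 of the 46 replication genes and 37 of the 55 mitosis genes, and KO75 the lowest for 31 of the 46 and 52 of the 55.

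Of these genes, 2 of the 46 replication and 2 of the 55 mitosis genes had groups without overlap, against 18.7% of all tested genes. Pttg1 (securin), the inhibitor of separase, stood at 6.77 CPM in KO72, 4.96 in KO73 and 7.05 in KO75, against 12.8 in WT185, 13.7 in WT186 and 11.8 in WT187. The groups did not overlap, and WT186, a low library for the module, was the highest of all 6. Its log2 fold change was -1.03 ± 0.24 SE, with an edgeR adjusted p = 0.198 and a DESeq2 adjusted p = 0.0016. Gmnn (geminin, the inhibitor of CDT1) averaged 15.6 ± 2.92 CPM in Trmt6-/- and 21.9 ± 1.20 CPM in WT, and the spindle gene Spag5 20.1 ± 9.86 CPM in Trmt6-/- and 43.2 ± 10.2 CPM in WT, each without overlap (adjusted p = 0.389 and 0.335). Slbp, which encodes the histone stem-loop binding protein, and the kinetochore gene Nuf2 came next by p (adjusted p = 0.489 and 0.568).

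Of 32 transcription factors and inhibitors of the cycle, 26 had estimates below 0 (median -0.21, -0.44 without KO72, -0.13 without KO75, -0.062 without WT185 and -0.42 without WT186), none passed with edgeR or limma-voom, and 2 had an unadjusted p below 0.05, against 6.15% of all tested genes in the higher direction. Both had higher means in the libraries labelled Trmt6-/-, and DESeq2 called 1 of the 32 genes, again no larger a share than 4.49%. Cdkn2b (p15), an inhibitor of CDK4 and CDK6, stood at 96.7 CPM in KO72, 125 in KO73 and 147 in KO75, against 65.2 in WT185, 75.3 in WT186 and 73.8 in WT187 (log2 fold change 0.78 ± 0.19 SE, edgeR adjusted p = 0.202, DESeq2 adjusted p = 0.0187). The groups did not overlap, as for 3 of the 32 genes, against 18.7% of all tested genes. KO75, the lowest library for the module, was the highest for this inhibitor. E2f3, an E2F activator, averaged 46.2 ± 4.80 CPM in Trmt6-/- and 33.5 ± 4.604 CPM in WT (0.46 ± 0.16 SE, adjusted p = 0.334). Cdkn1c (p57) reached 7.30 CPM at most, in WT186, and shares 30.7% of its exon bases with a gene on the other strand (adjusted p = 0.460). Foxm1, which encodes a factor of the mitotic genes, had the same highest and lowest library as the MCM genes, at 32.3 CPM in KO72, 22.4 in KO73 and 8.11 in KO75, against 41.5 in WT185, 16.5 in WT186 and 33.3 in WT187.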

How the data were processed

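RNA of intestinal tissue was turned into cDNA, amplified and made into libraries with a TruePrep kit, per the labels' protocols. The deposited table holds raw counts of read pairs per gene, made with featureCounts 2.0.1 on GENCODE M23 exons per the file headers, with no strand, multi-mapping or overlap option in the command. fastp, HISAT2 and mm10 are named per the submitters' processing notes. Exon lengths in the deposited table (unit: other) served only to compute TPM. Symbols came from GENCODE M21 and matched 55154 of 55335 genes. Column names show the genotype and an animal number that the labels do not repeat, so columns were tied to groups only.

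After filterByExpr and TMM scaling, genotype was tested with edgeR 4.0.16 (quasi-likelihood, no other covariate) under R 4.3.3, and p-values were adjusted by Benjamini-Hochberg over 14107 genes. CPM uses TMM-scaled library sizes, and log2 CPM a prior count of 2. Intervals are 95% on the t distribution of the fit. Library totals were 15213972 to 16972758 counts, without molecular identifiers. The p-values rest on the spread between 3 animals per group, with each gene's spread drawn toward that of all tested genes. No 2 libraries were duplicates (chi-square per degree of freedom 48.4 to 225). The model was tested on simulated data. Alternatives were RLE size factors, DESeq2 1.42.0, limma-voom (limma 3.58.1), 2 other filters and each library left out. Members and lists were chosen with earlier results of these data known. All members were named, and from each further list the 3 genes of smallest p, as none passed, except 1 that is not reported here. Of each marker list the sum was taken, and the crypt list's 2 most abundant genes were named. Axin2, Foxm1, Lgr5, Fabp6 and Myh11, and genes in the closing section, were chosen after their values were seen.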

Additional observations from a re-analysis of the deposited data

How the results depend on the processing

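With RLE size factors, DESeq2, limma-voom, no low-count filter or a filter of 1 CPM in 3 libraries, 35 of the 38 members had estimates below 0 and 0 passed, and no member changed direction. Over all genes, 633 passed with DESeq2, 0 with limma-voom and 159 without the low-count filter, against 6, and 0 to 6 with each library left out. DESeq2 called 1 gene in each of the 3 further lists. With each library left out, 14 members changed direction without passing, 11 of them without WT185. Their log2 fold changes ran from -0.76 to 0.17 for Aurkb, -0.46 to 0.33 for Ccnd1, -0.16 to 0.73 for Ccnd2, -1.30 to 0.18 for Ccne1, -0.69 to 0.086 for Cdk1, -0.68 to 0.19 for Cdt1, -1.29 to 0.081 for E2f1, -0.90 to 0.47 for Gins2, -1.02 to 0.28 for Mcm3, -0.75 to 0.13 for Mcm4, -1.05 to 0.071 for Mcm7, -0.30 to 0.37 for Plk1, -0.90 to 0.048 for Rrm1 and -0.47 to 0.44 for Rrm2. The cause was not tested. The S phase minus mitotic difference between genotypes ran from -0.080 to 0.26 with each library left out and was 0.033 with Cdc6, Cdt1 and Gins2 in the S phase list. No paired analysis was possible because the columns carry no replicate numbers. With 3 libraries per group and a median SE of 0.485 over the members, a 2-fold lower level was not excluded for 35 of them.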

Other observations

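Cdkn1a (p21), an inhibitor of cyclin-dependent kinases, stood at 180.1 CPM in KO72, 215 in KO73 and 169 in KO75, against 95.8 in WT185, 217 in WT186 and 166 in WT187, so its lowest library was the highest library of the replication genes. The reverse did not hold, as KO75, the lowest library for most of the module, lay below KO72, KO73 and WT186. Cdc25a, the phosphatase that activates CDK2 at S phase entry, varied little, at 77.2 CPM in KO72, 89.1 in KO73 and 89.9 in KO75, against 84.8 in WT185, 103 in WT186 and 93.7 in WT187. Uhrf1, a maintenance methylation factor of replicating DNA, had the same highest and lowest library as the MCM genes, at 58.0 CPM in KO72, 31.1 in KO73 and 10.5 in KO75, against 107 in WT185, 20.5 in WT186 and 54.8 in WT187. Adjusted p was 0.826, 0.778 and 0.721 for these 3 genes (edgeR). Fen1, the flap endonuclease gene, was listed at no more than 2.82 CPM, and 84.2% of its exon bases lie in exons of other genes, where the counting could not assign reads.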
